A study of Homo sapiens with 6 samples.

Results

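CREB factors are basic leucine zipper proteins that bind the cAMP response element (CRE) in promoters. The set described here holds 10 genes: the nuclear factors CREB1 and CREM, the membrane-bound factors CREB3, CREB3L2 and CREB3L4, and 5 CREB-like proteins and regulators, CREBL2, CREBRF, CREBZF, CRTC2 and CRTC3. They were chosen by symbol and by level, as listed family genes whose normalized count averaged 10 or more across the 6 libraries, from a table of 17202 genes of which 13465 reached that level. The listing was made with earlier results of these data known, so counts over the 10 genes are descriptions of these genes and not a test of the family.

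The cells were DND41, an established human T-cell acute lymphoblastic leukaemia line, grown in serum-containing medium. The treated group received MB1-47, named in the series title as a mitochondrial uncoupling drug, at a dose the labels write as 4 mM, a unit that was not checked. The control group received DMSO, and each group had 3 libraries taken after 24 h. Plating in triplicate is all the labels say of the replicates, so each p-value is set against variation among libraries that may be only technical.

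In resting cells CREB1 sits on CREs and becomes active when a serine in its kinase-inducible domain is phosphorylated, by protein kinase A in response to cAMP or by calcium- and growth factor-regulated kinases, which lets it recruit the coactivators CREBBP and EP300. CRTC coactivators act beside that step: salt-inducible kinases hold them in the cytoplasm and calcineurin releases them. The CREB3 group works differently, since these proteins are held in the endoplasmic reticulum membrane, are cut by the Golgi proteases MBTPS1 and MBTPS2 after transport, and then enter the nucleus to drive genes of the secretory pathway. CREBRF is known as a partner that recruits and destabilises CREB3. In lymphocytes CREB activity follows antigen receptor and cAMP signals.

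The promoters of the members were searched for the CRE, the element that CREB factors bind. RefSeq promoter windows of 300 bases on GRCh38.p14, mostly upstream of an annotated start, covered 9 of the 10 members with 17 windows; CRTC2 had none. The full CRE, TGACGTCA, was searched on both strands and lay in 3 windows of 2 members, against 1.85% of all 35116 windows. The shorter core TGACG, which every full CRE also contains, lay in 7 windows of 5 members, against 24.6% of all windows, and CCACG, the core of an endoplasmic reticulum stress element, in 8 windows of 7 members, against 38.1%. Many of the members' windows were of CREM, some of them overlapping, so the windows are not separate promoters. The shares are per window and not per gene. A match describes letters in the window and not a bound site. The first pair of sequences below are the stretches around the full CRE, at CREB3L2 and at an internal start of CREM, where 2 overlapping windows hold the same CRE. The last pair show the shorter core, in reverse orientation, at CREBRF, the member with the largest change, and at CREB3, the factor it binds. Capitals mark the CRE or the core, and each run is given 5′ to 3′ on the gene's strand.
CREB3L2, chr7:138002208-138002315, minus strand, CRE from 179 bases before the start: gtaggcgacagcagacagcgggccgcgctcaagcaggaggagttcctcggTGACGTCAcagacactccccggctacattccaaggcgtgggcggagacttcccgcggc
CREM internal start, chr10:35195802-35195909, plus strand, CRE from 50 bases before the start: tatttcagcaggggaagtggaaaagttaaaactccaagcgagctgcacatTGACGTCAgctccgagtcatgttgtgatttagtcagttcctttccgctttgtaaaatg
CREBRF, chr5:173056325-173056401, plus strand, core from 23 bases after the start: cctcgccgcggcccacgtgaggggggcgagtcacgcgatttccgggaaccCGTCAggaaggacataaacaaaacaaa
CREB3, chr9:35732522-35732629, plus strand, core from 94 bases before the start: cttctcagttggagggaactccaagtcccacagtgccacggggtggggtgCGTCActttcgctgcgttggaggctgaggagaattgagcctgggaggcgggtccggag

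The internal CREM start is of the kind known to make the short repressor forms called ICER. The deposited values are 1 per gene, so ICER and the longer CREM forms were not separated. No full CRE lay in the window of CREB1 or CREBRF.

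With MB1-47, 8 of the 10 members were called higher and none lower, CREM and CREBZF being the 2 that were not called. A gene was called when its adjusted p was under 0.05 in limma's moderated test on log2(value + 1), adjusted by the Benjamini-Hochberg method over all tested genes. By the same rule 18.3% of all tested genes were higher and 38.1% changed in either direction. In 9 of the 10 members all MB1-47 libraries lay above all DMSO libraries, as they did in 24.1% of tested genes. The median log2 fold change was 0.69 over the members and 0.02 over all tested genes. By class the median was 0.48 for the 2 nuclear factors, 0.82 for the 3 membrane-bound factors and 0.57 for the 5 CREB-like proteins and regulators. After scaling all libraries to an equal total, which moved the median of all genes to 0.15, 9 members were higher and none lower, and all genes split into 3335 higher and 2063 lower in place of 2458 and 2667.

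**Figure D1:**
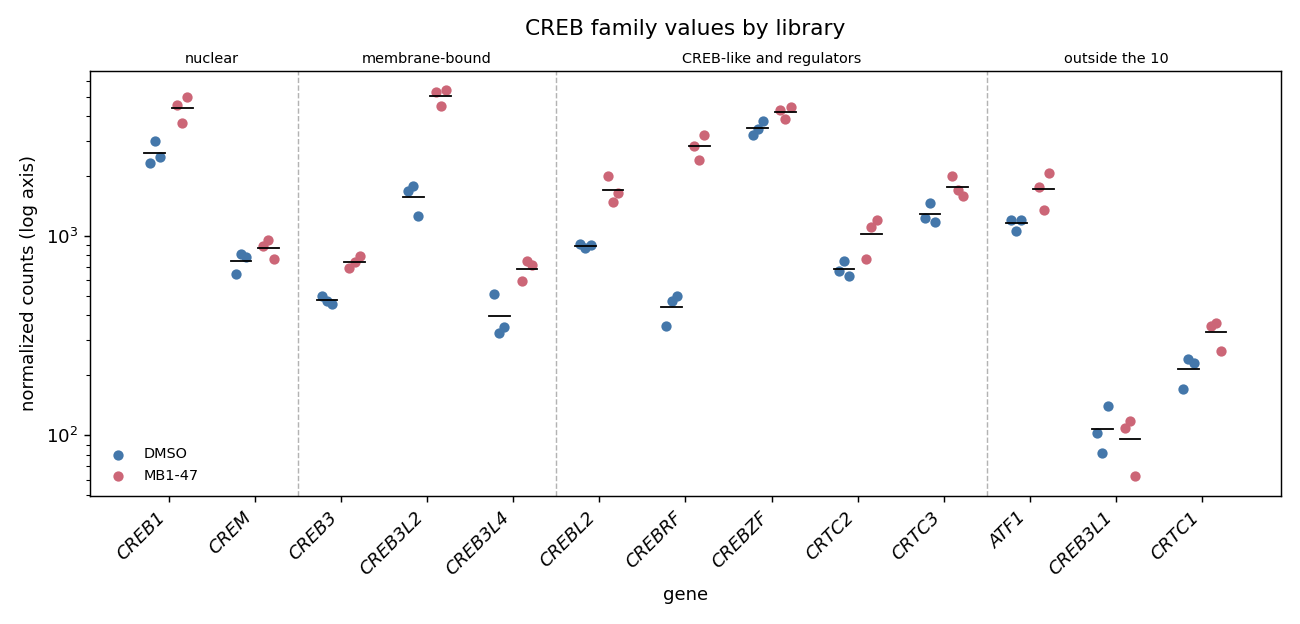
Normalized counts (log axis) of the 10 members and of 3 family genes outside the set, with 1 point per library, DMSO in blue and MB1-47 in red, and a black line at each group mean. CREBRF and CREB3L2 show the widest gaps between the groups, while the groups overlap in CREM and CREB3L1.

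Among the nuclear factors, CREB1 rose and CREM was not called. CREB1, the main CRE-binding activator (chromosome 2 from 207529737 to 207603431 in GENCODE 29 on GRCh38), stood at 2324, 3002 and 2481 normalized counts in DMSO replicates 1, 2 and 3 and at 4515, 3685 and 4950 in the MB1-47 replicates. Every treated library was above every control library. The group means were 2603 ± 355 and 4384 ± 643 (SD, n = 3), a log2 fold change of 0.75 ± 0.13 (SE), or 1.68-fold, with a limma adjusted p of 0.00096.

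CREM, which makes both activator and repressor forms, stood at 647, 814 and 784 with DMSO and at 892, 950 and 768 with MB1-47. Its groups overlapped, since MB1-47 replicate 3 lay below DMSO replicates 2 and 3. The log2 fold change of 0.22 had a 95% interval from -0.11 to 0.54 (limma adjusted p = 0.273), which includes no change and also the lower end of the interval of CREB1, 0.46 to 1.04. Within a library, the log2 ratio of CREB1 to CREM was 1.84, 1.88 and 1.66 with DMSO and 2.34, 1.95 and 2.69 with MB1-47, so it was higher in each treated library than in any control, by little in MB1-47 replicate 2. ATF1, the remaining close relative of CREB1, was not among the listed genes although its level would have passed. It averaged 1155 ± 82.0 in control and 1719 ± 359 in treated libraries (log2 fold change 0.55 ± 0.15, limma adjusted p = 0.0148), and its call was lost without DMSO replicate 2 (adjusted p = 0.0554), without MB1-47 replicate 3 (0.0679) or without an intensity trend (0.0678).

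All 3 membrane-bound members rose, and CREB3L2 rose most. CREB3L2, a factor of secretory and cartilage cells on chromosome 7 from 137874979 to 138002067, stood at 1677, 1789 and 1253 normalized counts with DMSO and at 5270, 4498 and 5359 with MB1-47. The lowest treated library was far above the highest control. Its means of 1573 ± 283 and 5042 ± 474 gave a log2 fold change of 1.69 ± 0.14, or 3.23-fold (limma adjusted p = 5e-06). Only 2.67% of tested genes had a larger log2 fold change.

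CREB3, also called Luman (chromosome 9 from 35732335 to 35737004), stood at 498, 472 and 458 with DMSO and at 692, 736 and 797 with MB1-47. The control libraries lay close together and all treated libraries were above them. The log2 fold change was 0.64 ± 0.14 (limma adjusted p = 0.00423). CREB3L4, the family's prostate- and testis-rich form on chromosome 1 from 153967534 to 153974363, stood at 512, 325 and 348 with DMSO and at 593, 749 and 717 with MB1-47. DMSO replicate 1 was the highest control and came nearest to the treated group. The log2 fold change was 0.82 ± 0.20 (limma adjusted p = 0.00734).

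Both CREB3 and CREB3L4 overlap genes on the opposite strand; the libraries were strand-specific per the labels, but whether the authors' counting used strand is not given in the sources used here. Of the distinct 31-base words in the GENCODE 29 transcripts of CREB3, 7.36% also occurred in other genes in either orientation, mostly in GBA2, and of those of CREB3L4 11.1%, mostly in SLC39A1. GBA2 was itself higher (0.56 ± 0.14, limma adjusted p = 0.0096). TLN1, which also overlaps CREB3, averaged 12041 ± 1535 in control and 10677 ± 578 in treated libraries (-0.17 ± 0.10) and was not called. SLC39A1 averaged 2313 ± 114 in control and 1962 ± 112 in treated libraries (-0.24 ± 0.10, limma adjusted p = 0.0799). JTB, a further overlapping gene of CREB3L4, was lower (-0.46 ± 0.13). CREB1 overlaps METTL21A, which stood at 1242 ± 238 and 1063 ± 184. The part of shared reads in either value was not tested. For the other 8 members the shared part was at most 3.32%.

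The log2 ratio of CREB3L2 to CREB3 within a library was 1.75, 1.92 and 1.45 with DMSO and 2.93, 2.61 and 2.75 with MB1-47, with no overlap. The related factor CREB3L1, not among the listed genes, was not called. It stood at 103, 81.4 and 140 with DMSO and at 109, 118 and 62.4 with MB1-47, with overlapping groups and an interval of the log2 fold change from -0.96 to 0.61. Its fold change of -0.18 turned to 0.02 without DMSO replicate 3 and to 0.10 without MB1-47 replicate 3. CREB3L3, the liver and gut form, had a mean of 2.53 and CREB5 a mean of 7.93, just below the minimum of 10, and neither was tested. The lowest member by mean, not divided by transcript length, was CREB3L4 at 541.

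**Figure D2:**
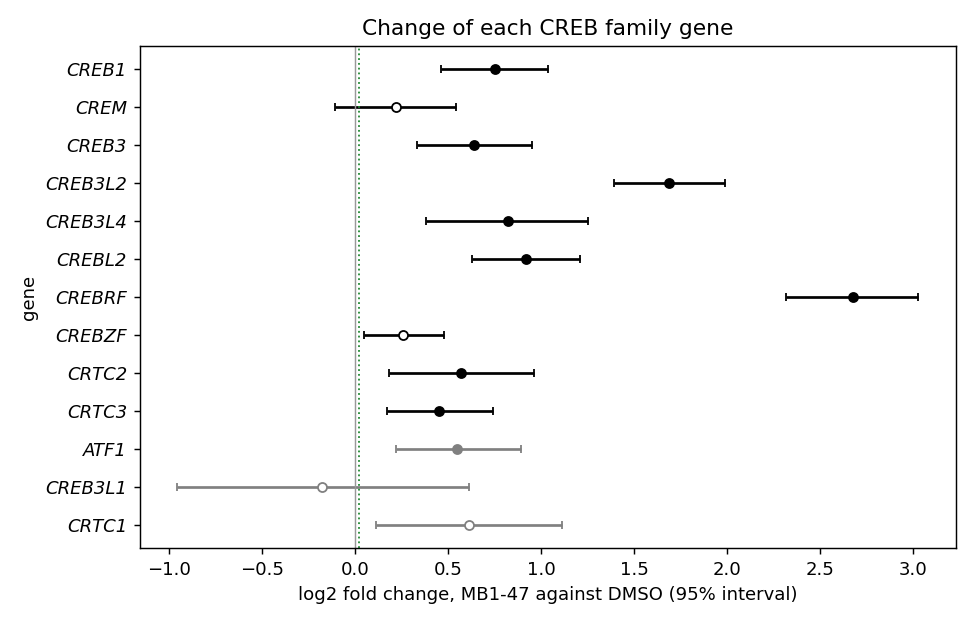
Log2 fold change of MB1-47 against DMSO (x axis) for each gene, with bars for the 95% interval. Black points are the 10 members and grey points the family genes outside the set, filled points were called, and the dotted line marks the median of all tested genes, 0.02. CREBRF at 2.68 and CREB3L2 at 1.69 lie apart from the other members, each of whose intervals overlaps that of its neighbour in the order.

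Of the CREB-like proteins, CREBRF had the largest change of the set. CREBRF, the CREB3 regulatory factor on chromosome 5 from 173056352 to 173139284, stood at 353, 473 and 499 normalized counts with DMSO and at 2837, 2406 and 3213 with MB1-47. The lowest treated library exceeded the highest control several-fold. Its means of 441 ± 77.9 and 2819 ± 404 gave a log2 fold change of 2.68 ± 0.16, or 6.40-fold (limma adjusted p = 8.6e-07), and 0.579% of tested genes had a larger one. The log2 ratio of CREBRF to CREB3, the factor it binds, was -0.50, 0.00 and 0.12 in the control libraries and 2.03, 1.71 and 2.01 in the treated ones. Among 10239 other genes with a mean of at least 100, the 3 with the nearest profile by Euclidean distance over the 6 libraries, after centring log2 values, were FZD2, PLCL1 and RELB, at distances of 0.37, 0.42 and 0.44. FZD2, a WNT receptor, went from 58.1 ± 9.04 to 337 ± 2.70, and RELB, an NF-kB subunit, from 122 ± 34.8 to 676 ± 50.5. No member was called lower, so no such match was made for a fall.

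CREBL2, a small CREB-like protein linked to metabolic control (chromosome 12 from 12611827 to 12645108), stood at 915, 870 and 897 with DMSO and at 1996, 1480 and 1648 with MB1-47. The control libraries were tightly grouped and every treated library was well above them. The log2 fold change was 0.92 ± 0.13, or 1.90-fold (limma adjusted p = 0.00024).

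CREBZF, also called Zhangfei, which binds the cofactor HCFC1 and represses other zipper factors (chromosome 11 from 85659708 to 85682908), stood at 3217, 3432 and 3784 with DMSO and at 4256, 3846 and 4413 with MB1-47. The groups did not overlap, but MB1-47 replicate 2 and DMSO replicate 3 nearly met. Its log2 fold change of 0.26 ± 0.10 just missed the threshold (limma adjusted p = 0.0532). It passed without DMSO replicate 3 (adjusted p = 0.0453) or MB1-47 replicate 2 (0.0344). It also passed with a mean minimum of 50 (0.0453), quantile normalization (0.0284), equal library totals (0.00658) and a replicate block (0.0395). Over 15 alternative settings it was called in 6, and the adjusted p ran from 0.00658 to 0.171.

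CRTC2 and CRTC3 rose by less than CREBRF and CREBL2, and their calls depended on single libraries and on the intensity trend. CRTC2 (chromosome 1 from 153947669 to 153958625) stood at 666, 748 and 630 with DMSO and at 767, 1105 and 1206 with MB1-47. MB1-47 replicate 1 lay barely above the highest control and the other treated libraries well above it. The log2 fold change was 0.57 ± 0.18 (limma adjusted p = 0.0257), and the call was lost without DMSO replicate 1 (adjusted p = 0.0542), DMSO replicate 3 (0.0899), MB1-47 replicate 2 (0.08) or MB1-47 replicate 3 (0.11), or without an intensity trend (0.0823). CRTC3 (chromosome 15 from 90529925 to 90645345) stood at 1224, 1457 and 1171 with DMSO and at 1992, 1704 and 1584 with MB1-47. All treated libraries were above the controls, with MB1-47 replicate 1 the highest. The log2 fold change was 0.45 ± 0.13 (limma adjusted p = 0.0172), lost without DMSO replicate 3 (adjusted p = 0.0719), MB1-47 replicate 1 (0.0746) or an intensity trend (0.0589). The high treated libraries were thus not the same for both genes, and the log2 ratio of CRTC2 to CRTC3 overlapped between the groups, at -0.91 ± 0.05 with DMSO and -0.80 ± 0.51 with MB1-47. CRTC1, outside the listed genes, averaged 214 ± 38.0 in control and 328 ± 55.8 in treated libraries (0.61 ± 0.23, limma adjusted p = 0.0537) and passed without MB1-47 replicate 3 (adjusted p = 0.04), with a mean minimum of 50 (0.0465) and with equal library totals (0.0306).

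In the order of their changes, CREBRF came first and CREB3L2 second, and their 95% intervals, 2.32 to 3.03 and 1.39 to 1.99, did not overlap. The interval of CREBL2, next in order, was 0.63 to 1.21 and lay below that of CREB3L2. From CREBL2 on, through CREB3L4, CREB1, CREB3, CRTC2, CRTC3, CREBZF and CREM, each interval overlapped that of its neighbour in the order. Differences between members were not tested. The within-library ratios, and the means that show how low a gene was, were not divided by transcript length. Other levels between genes were compared per kilobase, with transcript lengths from GENCODE 29, and their order depended on the length used. With the median length of coding transcripts CREB1 was highest in DMSO cells, at 3610 ± 493 normalized counts per kilobase, ahead of CREBZF at 1520 ± 125, whereas with the longest transcript CREBZF led with 861 ± 70.8 against 340 ± 46.4 for CREB1. CREBRF was the lowest member in DMSO cells under both lengths, at 214 ± 37.8 and 56.7 ± 10.0 per kilobase.

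**Figure D3:**
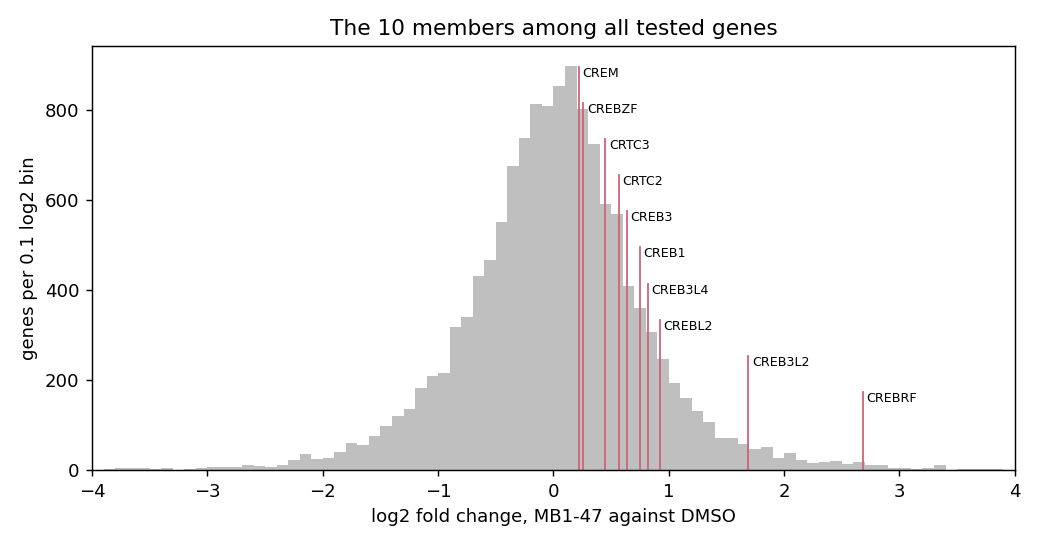
Histogram of the log2 fold changes of all 13465 tested genes (x axis, cut at -4 and 4 with 24 genes outside; y axis, genes per 0.1 log2 bin), with a red line at each member's value. The height of a line only separates the names. All 10 members lie to the right of 0, 8 of them within the body of the distribution and CREB3L2 and CREBRF in its upper tail.

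Upstream of CREB1, the genes for cAMP production and protein kinase A went both ways. Of 26 listed genes 22 were tested, 3 were higher and 8 lower, and the median log2 fold change was -0.17. For this list and those that follow, the shares over all tested genes were 18.3% higher and 38.1% changed in either direction. Of all 13465 tested genes, 2458 were higher and 2667 lower. AKAP1, which anchors the kinase at mitochondria, went from 3979 ± 241 to 1601 ± 122 (-1.31 ± 0.10, limma adjusted p = 3.2e-06), and the adenylyl cyclase ADCY3 from 4950 ± 435 to 2170 ± 179 (-1.19 ± 0.10). ADCY7 changed by -1.17 ± 0.33 (limma adjusted p = 0.0167), a call lost without DMSO replicate 3 (adjusted p = 0.0853), MB1-47 replicate 2 (0.0521), MB1-47 replicate 3 (0.0668) or an intensity trend (0.074). The 3 higher genes were AKAP13 (0.77 ± 0.14), AKAP11 (0.51 ± 0.10) and PRKAR1A (0.30 ± 0.10, limma adjusted p = 0.0305), the last with overlapping groups. Of the catalytic subunits, PRKACA changed by -0.36 ± 0.11 (limma adjusted p = 0.0282). Its call was lost without DMSO replicate 1, DMSO replicate 3, MB1-47 replicate 1 or MB1-47 replicate 3 (adjusted p 0.0695 to 0.105), with equal library totals (0.14) and without an intensity trend (0.0686). PRKACB averaged 7618 ± 704 in control and 8716 ± 575 in treated libraries (0.20 ± 0.09, limma adjusted p = 0.116), and passed with equal library totals (adjusted p = 0.007), with quantile normalization (0.00998) and without DMSO replicate 1 (0.046). The count of 8 lower became 5 without DMSO replicate 3 or without an intensity trend and 4 without MB1-47 replicate 3, and the count of 3 higher became 5 without DMSO replicate 1. With equal library totals 5 were higher and 5 lower.

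Of the 8 phosphodiesterase genes tested, which break down cyclic nucleotides, 2 were higher and none lower: PDE1B (0.91 ± 0.19) and PDE3B (0.77 ± 0.20). Without an intensity trend PDE3B was not called (limma adjusted p = 0.0797) and the count was 1. Of 13 tested kinases that act on CREB1 or on its kinases, 4 were higher and 3 lower, with a median of 0.02. CAMK2D rose from 640 ± 68.3 to 1503 ± 295 and CAMK4, the calcium-dependent kinase of T cells, changed by 0.97 ± 0.12. CAMKK1, which activates CAMK4, went from 267 ± 21.3 to 73.0 ± 17.0 (-1.88 ± 0.27, limma adjusted p = 0.00027). CAMKK2, also on this list, went from 3075 ± 54.8 to 1701 ± 128 (-0.86 ± 0.10), and MAPKAPK3 from 9522 ± 570 to 4375 ± 586.

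Among 12 genes that control the CRTC proteins, 1 was higher and 1 lower, with a median of 0.18. PPP3CA, a catalytic subunit of calcineurin, stood at 2841, 2907 and 3002 with DMSO and at 5837, 4742 and 5771 with MB1-47 (0.90 ± 0.10, limma adjusted p = 4.7e-05). SIK1, a kinase that holds CRTC proteins in the cytoplasm and is itself a CRE target, stood at 750, 706 and 831 with DMSO and at 138, 239 and 311 with MB1-47 (-1.80 ± 0.26, limma adjusted p = 0.00029). SIK1B, a near-identical copy that can share its reads, was lower as well, from 766 ± 116 to 228 ± 134, so the level of SIK1 alone is uncertain. SIK2 and SIK3 were not called. The other calcineurin genes on the list, PPP3CB (0.35 ± 0.13), PPP3CC (0.31 ± 0.15) and PPP3R1 (0.09 ± 0.12), were not called either. The count of 1 higher became 2 without DMSO replicate 1, DMSO replicate 2 or MB1-47 replicate 2, with a mean minimum of 50 or with a replicate block, 3 with quantile normalization, and 7 with equal library totals.

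The coactivator CREBBP stood at 6158, 5164 and 4826 with DMSO and at 8831, 7683 and 9788 with MB1-47 (0.70 ± 0.11, limma adjusted p = 0.00062). Its partner EP300 had overlapping groups, 3918 ± 816 and 5240 ± 716 (0.43 ± 0.14, limma adjusted p = 0.0361), and its adjusted p ran from 0.00303 to 0.152 over the alternatives, missing the threshold without DMSO replicate 1 (0.0958), DMSO replicate 3 (0.152), MB1-47 replicate 1 (0.0589) or MB1-47 replicate 2 (0.12), with TMM factors (0.05) and without an intensity trend (0.141). HCFC2 rose (1.01 ± 0.17), and HCFC1, the cofactor bound by CREB3 and CREBZF, was lower (-0.52 ± 0.13), though not with equal library totals (adjusted p = 0.0552) or without an intensity trend (0.0682). The proteases that release CREB3 factors from the membrane were not called: MBTPS1 changed by 0.09 with an interval from -0.12 to 0.30, and MBTPS2 by 0.16 with an interval from -0.08 to 0.41. With equal library totals MBTPS2 was called higher (limma adjusted p = 0.0482), 1 of the 2.

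Downstream, the lists for the nuclear and the membrane-bound factors gave different counts, a contrast that was not tested. Of 29 listed CRE-driven genes 19 were tested: 2 were higher, 2 lower and 15 not called, with a median of -0.18. Over all tested genes 18.3% were higher and 38.1% changed in either direction. With equal library totals 4 were higher and 2 lower. Some of the 19 were low, such as BDNF, NR4A1 and NR4A2 at means of 13.9, 15.6 and 34.5, where a change is harder to call. MCL1, at a mean of 10265, was not low and was not called either. The lowest mean among the secretory genes on the list taken up next was 3049, of SEC24A. EGR1, an immediate early factor, stood at 4792, 5600 and 4473 with DMSO and at 621, 902 and 730 with MB1-47 (-2.73 ± 0.14, limma adjusted p = 4.7e-07), and SIK1 was the other lower gene. Whether CREB factors drove either fall, or any other change on this list, was not tested. BCL2, an inhibitor of apoptosis, stood at 5108, 5510 and 5339 with DMSO and at 9943, 10267 and 10805 with MB1-47 (0.96 ± 0.08). The other higher gene, IRS2, named after its values were seen, was low in all libraries, 10.7 ± 9.53 with DMSO and 49.0 ± 21.9 with MB1-47, and its call (limma adjusted p = 0.0417) was lost without any 1 of DMSO replicates 1 and 2 or MB1-47 replicates 1 to 3 (adjusted p 0.0544 to 0.152), without an intensity trend (0.0922) and with a replicate block (0.0559), each of which left 1 higher gene on the list.

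All 10 secretory genes on the list for CREB3 factors were higher, with a median of 0.95. Over all tested genes 18.3% were higher and the median was 0.02. SEC24D, a cargo-binding subunit of the COPII coat and a known CREB3L2 target, stood at 3302, 3243 and 3601 with DMSO and at 10118, 8954 and 9585 with MB1-47 (1.5 ± 0.09, limma adjusted p = 7.1e-07). HERPUD1, a factor of endoplasmic reticulum-associated degradation, changed by 1.38 ± 0.13, and EDEM1, which hands glycoproteins to that pathway, went from 21740 ± 596 to 49342 ± 1038 (1.18 ± 0.07). ARF4, a small GTPase of the Golgi known as a CREB3 target, changed by 0.87 ± 0.15. SEC23A, another COPII gene and CREB3L2 target, was the weakest call (0.60 ± 0.20, limma adjusted p = 0.0399), lost without DMSO replicate 2 (adjusted p = 0.150), MB1-47 replicate 1 (0.156), MB1-47 replicate 2 (0.0939) or an intensity trend (0.158). HERPUD1 and EDEM1 are also known targets of ATF6 and XBP1, and which factor drove any of these genes was not tested. The list was drawn up with endoplasmic reticulum stress results of these data known, so its count is no independent evidence.

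**Figure D4:**
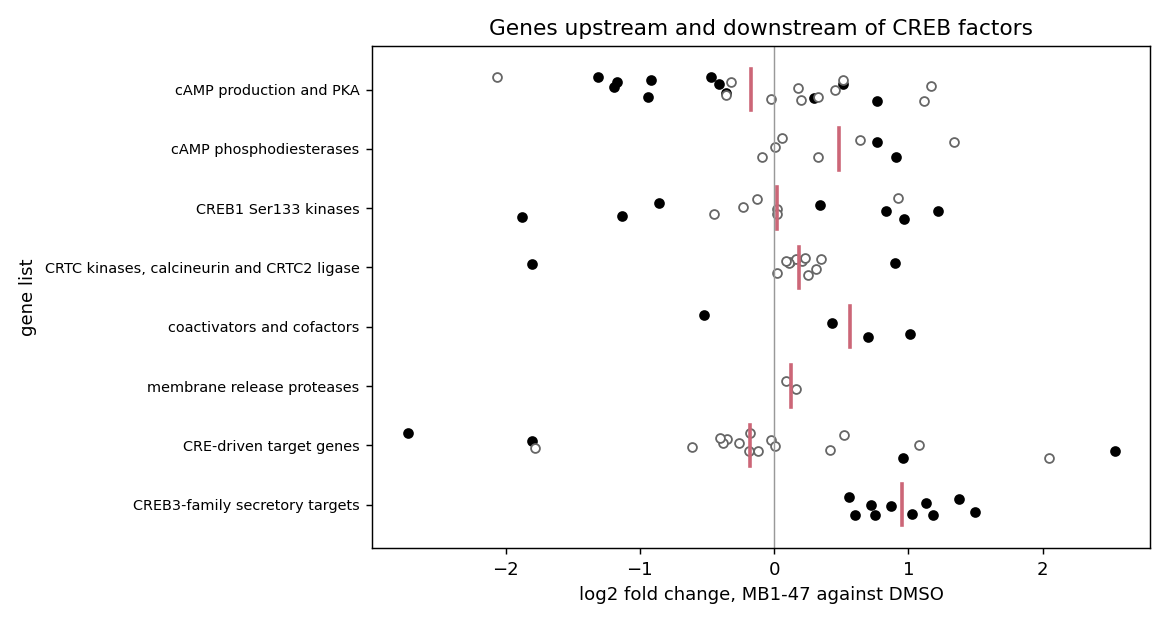
Log2 fold change of MB1-47 against DMSO (x axis) for each tested gene of 8 lists (y axis), with filled points for called genes, open points for the others and a red bar at each list's median. The CREB3-family secretory targets all lie above 0 (median 0.95), while the CRE-driven targets spread from -2.73 to 2.54 around a median of -0.18.

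Facts of the libraries bear on all of these values. Totals of the normalized counts ran from 28323706 to 32667526 per library and were lower in each MB1-47 library than in any DMSO library; these are not depths, which are unknown. Log2 values of library pairs correlated at 0.955 to 0.968 inside a group and at 0.927 to 0.948 across groups. All 8 T-lineage markers in the table had a mean of at least 10. Their summed level was 48851 to 53369 with DMSO and 26967 to 30750 with MB1-47. Of the 8, 5 were lower, among them CD7 (-2.02 ± 0.10), CD3D and LCK. CD3E (-0.17 ± 0.08), CD2 (-0.59 ± 0.55) and CD5 (2.11 ± 1.21) were not called, CD2 and CD5 at low means of 41.5 and 13.5. Without DMSO replicate 2, 1 of the 8 was called higher. Of the markers of other blood lineages 5 were in the table, with a sum of 16002 to 17119 and of 6446 to 7141, nearly all of it CD79A (16526 ± 573 with DMSO and 6825 ± 391 with MB1-47); CD14 and LYZ had means under 10. Their part in the members' values was not tested. In these bulk libraries, fewer cells with a transcript and less of it per cell cannot be told apart.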

How the data were processed

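Per the labels, the deposited table holds normalized counts, a signal that is never negative and not whole. Per the submitters' processing notes, the authors used kallisto 0.44.0 and DESeq with GRCh38.p13; for annotation and filters, nothing is given in the sources used here. In each library only 57.6% to 65.0% of low values matched a whole number of steps (tolerance 0.1), so reads could not be recovered and no counting interval is given.

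Groups came from the treatment label. Genes with a mean of at least 10 were tested with limma 3.58.1 in R 4.3.3 (log2(value + 1), intensity trend, Benjamini-Hochberg over 13465 genes, threshold 0.05). The steps were also run on simulated data, a run that did not test the scaling of the deposited values. Members, lists, tests and naming rule were chosen with earlier results of these data known. The rule named all members, the family genes outside them, up to 3 called genes per list with a mean of at least 50 and the largest change, and CREBBP, EP300, ATF1, SIK1, PRKACA, PRKACB, MBTPS1 and MBTPS2; further list genes were named after their values were seen. Of 145 list entries 126 matched the table; the others were not analysed here. Protein sequences were not used here. Alternatives were other pseudocounts, filters, scalings, no trend, a replicate block and each library left out. Python 3.11.15 and matplotlib 3.10.9 drew the figures.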

Additional observations from a re-analysis of the deposited data

How the results depend on the processing

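Over 15 alternative settings for each of the 10 members, 136 of 150 values kept their direction and their side of the threshold, 8 were no longer called, 6 became called and none reversed. Those that changed belonged to CREBZF, CRTC2 and CRTC3; without an intensity trend CRTC2 (adjusted p = 0.0823) and CRTC3 (0.0589) were lost, leaving 6 members called higher, the lowest count. Leaving out a library gave 7 or 8 members higher. The settings were also followed for 41 other genes. These include list genes with no fold change given above, such as GNAS and SEC24A, and leave out some named above, such as SIK2 and GBA2. Of their 614 values, 572 kept direction and call, 33 were lost, 7 gained and 2 reversed. Both reversals were of CREB3L1, which ranged from -0.36 to 0.10 over left-out libraries and stood at 0.02 without DMSO replicate 3. Same-numbered libraries deviated together by correlations of only 0.022, 0.057 and 0.007, so the numbers were not taken as pairs; with a replicate block 9 members were higher, and 2531 genes were higher and 2715 lower. The other settings gave 8 or 9 members higher and none lower. IRS2 gave no value with a mean minimum of 50, which it does not reach. Counts per list under these settings were added after the data were seen. Unknown depth and 3 libraries per group limit what could be called, above all for small changes such as those of CREM and CREBZF.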
